A study of Mus musculus with 19 samples.

Results

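The major urinary protein (Mup) genes were followed in the livers of 19 female mice, as the 10 genes Mup1, Mup2, Mup3, Mup7, Mup10, Mup11, Mup12, Mup17, Mup20 and Mup21, found by matching the gene identifiers of the count tables to mouse gene symbols. The tables list 49315 genes, and 49 of them are Mup genes or pseudogenes, of which 22 are protein-coding. The mice were Gramd1c-/- or Gramd1c+/+ littermates from crosses of heterozygotes, of the strain C57BL/6N-Atm1Brd Gramd1ctm1a(KOMP)Wtsi/JMmucd. They were 8 weeks old when they were put for 4 weeks on a high (0.2% wt/wt, 5 Gramd1c-/- and 5 Gramd1c+/+ mice) or low (0.02% wt/wt, 4 Gramd1c-/- and 5 Gramd1c+/+ mice) cholesterol diet. Mice labelled Gramd1c-/- are homozygous for a knockout-first (tm1a) allele, present in all tissues, whose inserted cassette interrupts the gene for the sterol carrier Aster-C. Each mouse gave 1 library of poly(A) RNA, and p-values measure the spread between these mice.

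Libraries held 27149972 to 34669648 counts. The tissue label reads gonadal adipose while the cell type label reads liver, so marker genes were checked: albumin (Alb) took 5.25 to 9.17% of the counts of each library, and the adipocyte hormone adiponectin (Adipoq) never exceeded 177 counts. Gramd1c had 74 to 251 counts in Gramd1c-/- livers, against 674 to 1173 counts in Gramd1c+/+ livers. The 251 counts were those of high-cholesterol Gramd1c-/- replicate 5, while no other Gramd1c-/- liver exceeded 130. A pair of libraries stood apart. Replicate 2 of the low-cholesterol Gramd1c+/+ mice had a summed TPM of 136.8 over 6 adipocyte markers and of 430.3 over 8 adrenal cortex markers, where no other library exceeded 8.54 and 4.41 TPM, and replicate 5 of the high-cholesterol Gramd1c-/- mice lay at 83.1 on the first principal component, where the others lay between -46.7 and 38.4. All 5 markers of lacrimal and salivary gland, other tissues that make lipocalins of this kind, had 0 counts in every library.

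Mup proteins are small secreted lipocalins, barrel-shaped carriers of small lipophilic molecules. In mice they are made mainly in hepatocytes, pass from plasma into urine, and there bind and slowly release volatile pheromones. Their transcription in liver is stimulated by pulses of growth hormone, by androgens, thyroid hormone and glucocorticoids, and is known to be higher in males than in females. Liver of females was examined here.

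The genes stand in a single array on chromosome 4 of GRCm38, all 10 on the minus strand, and the sequence sets how far their counts can be told apart. In order along the chromosome they are Mup7 (ENSMUSG00000073842, chr4:60066469-60070475), Mup2 (chr4:60135932-60154289), Mup1 (chr4:60498012-60501960), Mup10 (chr4:60578260-60582199), Mup11 (ENSMUSG00000073834, chr4:60658466-60662411), Mup12 (ENSMUSG00000094793, chr4:60737383-60741326), Mup17 (ENSMUSG00000096688, chr4:61591929-61595871), Mup20 (ENSMUSG00000078672, chr4:62050234-62054158), Mup3 (ENSMUSG00000066154, chr4:62083476-62087342) and Mup21 (ENSMUSG00000066153, chr4:62147932-62150863). The coding sequences of the first 7 are 98.7 to 99.81% identical to each other over the bases they share, with 1 to 7 mismatches. Mup20 is 90.56 to 91.48% identical to those 7, Mup3 83.89 to 84.81% and Mup21 84.07 to 85%, while Mup3 and Mup21 are 96.32% identical to each other. The stretch of 75 coding bases below, in which the members differ most, shows this. Capitals mark the 25 positions at which the 10 genes are not all the same, and the stretch lies within 1 coding exon, for example chr4:60661774-60661848 in Mup11 and chr4:62086844-62086918 in Mup3.
Mup1, Mup2, Mup10, Mup11 and Mup12: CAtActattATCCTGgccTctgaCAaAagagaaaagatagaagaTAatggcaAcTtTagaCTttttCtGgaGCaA
Mup7: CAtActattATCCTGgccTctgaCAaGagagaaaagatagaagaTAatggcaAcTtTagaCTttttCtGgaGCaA
Mup17: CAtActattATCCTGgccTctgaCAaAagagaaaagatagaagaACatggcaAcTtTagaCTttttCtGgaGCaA
Mup20: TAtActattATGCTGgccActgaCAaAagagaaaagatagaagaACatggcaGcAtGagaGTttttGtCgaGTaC
Mup3 and Mup21: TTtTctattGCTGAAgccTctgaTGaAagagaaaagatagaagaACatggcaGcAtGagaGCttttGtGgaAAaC

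Of all windows of 150 bases, the length of 1 read, in the annotated transcripts of a gene, 100% in Mup3 and 100% in Mup21 occur in no other gene, against 68.9% in Mup20, 59.6% in Mup17, 47.5% in Mup1, 35.2% in Mup11, 32.9% in Mup7, 29.7% in Mup2, 27.7% in Mup10 and 24.1% in Mup12. How reads with several matches were counted is not given in the sources used here, so the values of Mup3 and Mup21 are the least open to shared reads, and those of the 7 near-identical genes are uncertain as to which copy they belong to. Upstream sequence is shared as well. RefSeq (GRCm38.p6) gave the start region of 7 of the 10 members (not of Mup1, Mup12 or Mup20). A stretch of 82 bases that lies before the RefSeq start and overlaps no annotated Mup exon is given for 4 sets. AATCAAT is in capitals, a match to the core of the motif of the hepatocyte factor HNF6, which takes part in sex-biased liver expression. The stretch ends from 9 (Mup7) to 143 (Mup2) bases before the RefSeq start. For Mup2 it falls inside the gene span given above, which reaches further upstream. It lies at chr4:60140000-60140081 for Mup2, chr4:60662511-60662592 for Mup11, chr4:61595971-61596052 for Mup17, chr4:60070485-60070566 for Mup7, chr4:62087407-62087488 for Mup3 and chr4:62150925-62151006 for Mup21, on the minus strand.
Mup2, Mup11 and Mup17: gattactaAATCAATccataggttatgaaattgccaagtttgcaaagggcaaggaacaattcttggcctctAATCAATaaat
Mup7: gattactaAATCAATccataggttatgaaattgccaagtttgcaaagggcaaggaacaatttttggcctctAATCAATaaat
Mup3: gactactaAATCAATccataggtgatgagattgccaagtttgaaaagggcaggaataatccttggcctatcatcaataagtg
Mup21: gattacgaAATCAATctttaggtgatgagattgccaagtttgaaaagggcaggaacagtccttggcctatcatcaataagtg

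AATCAAT, searched on both strands, was found in the start regions of all 7 matched members (250 bases before to 50 after the start), against 2.86% of 32851 RefSeq start regions. TTCNNNGAA, the motif of the growth hormone-activated factor STAT5, was found in 0 of the 7 and in 8.3% of all start regions. TATATAA, searched as well, was found in 6 of the 7 and in 3.24% of all start regions. The 82-base stretches of Mup2, Mup7, Mup10, Mup11 and Mup17 differ from each other by 0 to 3 bases. Those of Mup3 and Mup21 differ by 6. The 7 members are therefore not independent observations beside a share of all start regions. These are matches of letters only.

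Mup3 was by far the most abundant member. It averaged 10475 TPM (counts per gene length, scaled to the same sum in each library) over the 19 mice, followed by Mup20 with 217.5, Mup17 with 61.5, Mup21 with 61.0, Mup11 with 43.8, Mup7 with 33.7, Mup2 with 12.1, Mup12 with 5.12, Mup1 with 1.42 and Mup10 with 1.40 TPM. The 10 genes took 0.302 to 0.989% of all counts of a library, and Mup3 gave 91.8 to 98.5% of that sum. Between neighbours in this order, only Mup3 over Mup20 and Mup12 over Mup1 held within each of the 19 mice. Below Mup3 the ranges of all neighbours overlapped over the mice. By median Mup2 (11.5 TPM) lay above Mup7 (8.27 TPM). Apart from those pairs the order is thus not beyond the spread. How much of a level reflects the number of hepatocytes and how much the RNA per cell cannot be told apart in bulk tissue.

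The members differed widely in how much they varied between mice. Mup7 ran over a range of 175-fold, with 203.5 TPM at the highest and 1.16 TPM at the lowest, Mup17 over 146-fold, Mup11 over 48.7-fold, Mup12 over 39.6-fold and Mup1 over 32.0-fold. Mup21 ranged over 16.5-fold, Mup20 over 9.83-fold, Mup10 over 6.73-fold, Mup3 over 2.63-fold and Mup2 over 2.39-fold. Among 14783 tested genes with a TPM above 0 in every mouse the median range was 2.48-fold and the 99th percentile 42.9-fold, so Mup7, Mup11 and Mup17 were among the most variable genes of these livers while Mup2 and Mup3 were ordinary. Biological coefficients of variation from edgeR gave the same order of the extremes, 1.12 for Mup7, 0.947 for Mup17 and 0.901 for Mup11, against 0.32 for Mup3, 0.248 for Mup2 and a median of 0.212 over all tested genes.

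**Figure D1:**
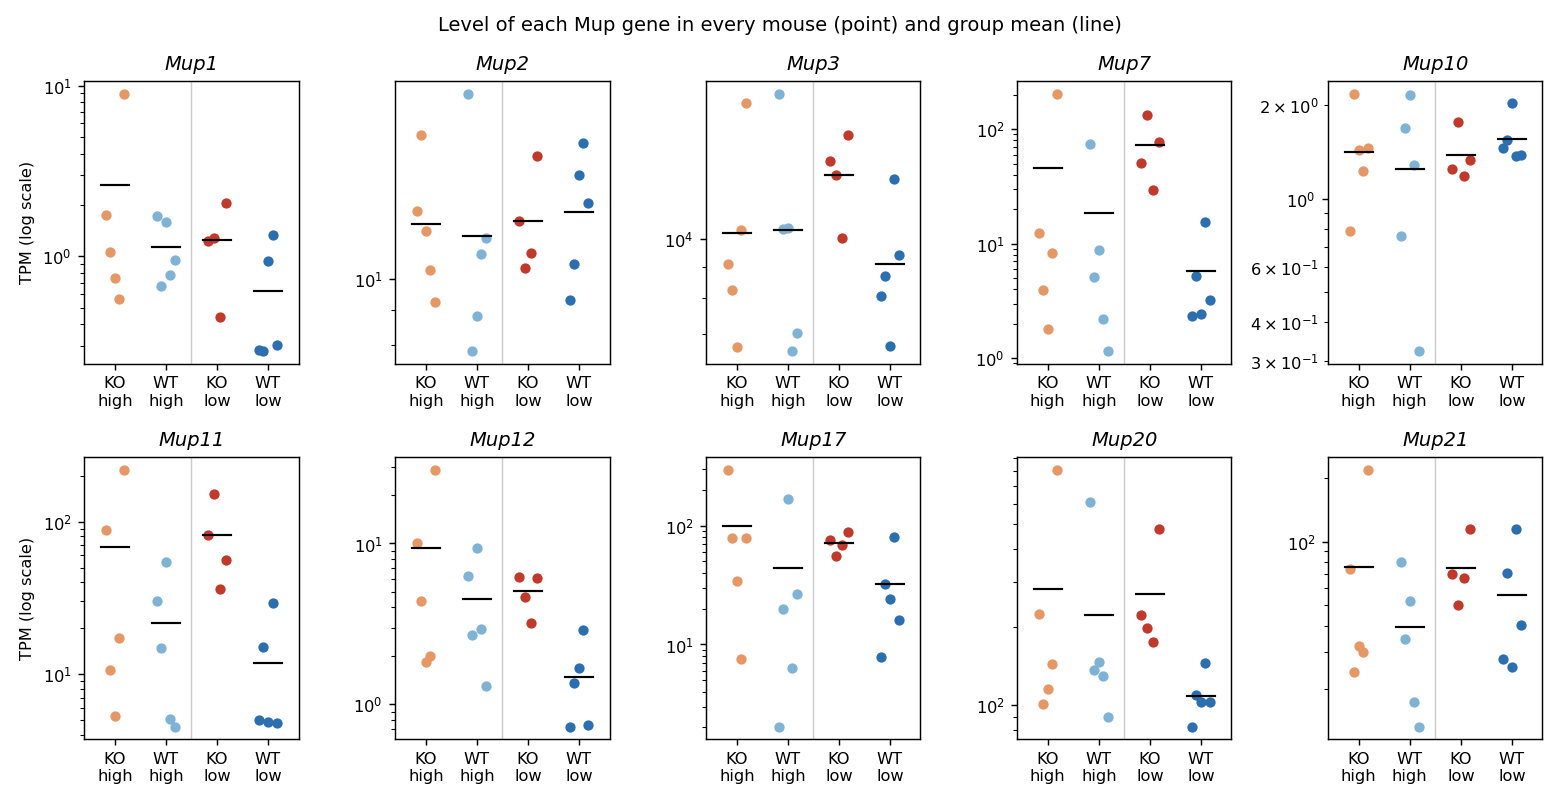
TPM of each of the 10 Mup genes (log scale) in every mouse (points) with the group mean (line), for Gramd1c-/- (KO) and Gramd1c+/+ (WT) mice on high and low cholesterol. For Mup7, Mup11, Mup12 and Mup20 all 4 low-cholesterol KO mice lie above all 5 low-cholesterol WT mice, and on high cholesterol the groups of every gene overlap.

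The comparison of genotypes on low cholesterol asked whether loss of Aster-C changes these transcripts when dietary cholesterol is scarce. The study had already reported Mup7, Mup11, Mup12 and Mup20 as higher in Gramd1c-/- mice on this diet, from these same libraries. Their direction, lack of overlap and p-values here are thus not independent evidence. Mup7 had 50.3, 132.8, 29.5 and 76.6 TPM in Gramd1c-/- mice, against 2.32, 5.22, 2.44, 15.6 and 3.25 TPM in Gramd1c+/+ mice. The groups did not overlap, although Gramd1c+/+ replicate 4 reached more than the other 4 mice of its group. Mup11 had 81.6, 151, 35.9 and 56.2 TPM in Gramd1c-/- mice, against 4.99, 15.1, 4.80, 29.1 and 4.73 TPM in Gramd1c+/+ mice, with the same mouse the highest of its group. Mup12 had 6.23, 4.66, 3.21 and 6.10 TPM in Gramd1c-/- mice, against 0.727, 1.36, 1.68, 2.90 and 0.739 TPM in Gramd1c+/+ mice. These are low levels, 38 to 80 counts against 9 to 38 counts.

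Mup20 encodes darcin, the male urinary pheromone protein that draws females to a scent mark. It had 222, 198, 175 and 479.7 TPM in Gramd1c-/- mice, against 82.7, 109.6, 103, 146 and 103 TPM in Gramd1c+/+ mice, again with no overlap and with Gramd1c-/- replicate 4 far above the rest. In all, 4 of the 10 members were higher in every Gramd1c-/- than in every Gramd1c+/+ mouse, where 0.693% of all 15016 tested genes were. In the exact two-sided permutation test of TPM each of these 4 had p = 0.00794, the smallest that 4 against 5 mice allow, with all 4 Gramd1c-/- mice above all 5 Gramd1c+/+ mice (40 such tests were made over 10 members and 4 comparisons, and these p-values are not adjusted).

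Over all genes none of the 4 was called. The log2 fold change, Gramd1c-/- over Gramd1c+/+, was 3.65 (SE 1.26, unadjusted p = 0.00905) for Mup7, 2.82 (SE 0.97, 0.00863) for Mup11, 1.76 (SE 0.76, 0.0308) for Mup12 and 1.29 (SE 0.60, 0.0447) for Mup20, with an adjusted p of 0.9995 for each (quasi-likelihood test of edgeR, Benjamini-Hochberg adjustment over 15016 genes). Called members thus numbered 0 of 10, where 0.00666% of all genes were called (1 gene, Gramd1c), and DESeq2 and limma also called 0. Members with an unadjusted p below 0.05 numbered 4 of 10 (3 by DESeq2, 4 by limma and 6 when only the 2 low-cholesterol groups were fitted, with Mup3 and Mup17 added), where 2.66% of all genes had one. Mup7 and Mup11 kept an unadjusted p below 0.05 whichever of the 19 mice was left out, while Mup12 and Mup20 both lost it without low-cholesterol Gramd1c+/+ replicate 1, 2 or 5 or Gramd1c-/- replicate 1 or 4, which left 2 members. Mup20 also lost it without low-cholesterol Gramd1c+/+ replicate 3, high-cholesterol Gramd1c+/+ replicate 2 or 3 or high-cholesterol Gramd1c-/- replicate 1. Without low-cholesterol Gramd1c+/+ replicate 4 the log2 fold change was 4.46 for Mup7 and 3.51 for Mup11. Without both libraries that stood apart the log2 fold changes were 3.57, 2.87, 1.69 and 1.25 for Mup7, Mup11, Mup12 and Mup20.

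The other 6 members overlapped between the genotypes on low cholesterol. Mup3 had 13415, 12695, 10016 and 14763 TPM in Gramd1c-/- mice, against 8079, 8698, 6679, 12548 and 9428 TPM in Gramd1c+/+ mice. Its means were 12722 ± 1997 TPM (SD, n = 4) and 9086 ± 2183 TPM (SD, n = 5), a log2 fold change of 0.48 (SE 0.31, unadjusted p = 0.134 by edgeR). The exact permutation test gave p = 0.0397 on TPM but 0.0556 on counts scaled only by the library total, with 3 of 4 Gramd1c-/- mice above all Gramd1c+/+ mice. Mup17 had 75.8, 55.6, 69.2 and 88.1 TPM in Gramd1c-/- mice, against 7.91, 32.1, 24.3, 80.4 and 16.2 TPM in Gramd1c+/+ mice, so that Gramd1c+/+ replicate 4 lay among the Gramd1c-/- mice. Its log2 fold change was 1.18 (SE 0.98, unadjusted p = 0.242 by edgeR), and its exact permutation p was 0.0476 on TPM and 0.0556 on total-scaled counts.

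Mup21, the close relative of Mup3, had 70.0, 49.9, 67.2 and 114.3 TPM in Gramd1c-/- mice, against 27.8, 70.8, 25.5, 115.2 and 40.4 TPM in Gramd1c+/+ mice (log2 fold change 0.44, SE 0.64). Mup1, which has been linked to the control of glucose metabolism in mice, had 1.25 ± 0.656 TPM (SD, n = 4) in Gramd1c-/- mice and 0.629 ± 0.487 TPM (SD, n = 5) in Gramd1c+/+ mice (log2 fold change 0.96, SE 0.76). Mup2 had 12.1 ± 2.15 and 12.6 ± 2.67 TPM in the same order (log2 fold change -0.06, SE 0.24), and Mup10 1.38 ± 0.262 and 1.55 ± 0.273 TPM (log2 fold change -0.18, SE 0.41). None of these 4 differed beyond its spread, with exact permutation p-values of 0.421 for Mup21, 0.127 for Mup1, 0.817 for Mup2 and 0.389 for Mup10. Over the 10 members the median log2 fold change was 1.07, with 8 of 10 positive, beside a median of -0.0015 over all tested genes. On high cholesterol it was 0.95, with 9 of 10 positive (4 of 10 without Gramd1c-/- replicate 5), beside a median of 0.0086.

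As a share of the library, the 10 genes held 0.666, 0.620, 0.497 and 0.713% of all counts in low-cholesterol Gramd1c-/- mice, against 0.376, 0.412, 0.311, 0.629 and 0.459% in Gramd1c+/+ mice. These shares, mostly Mup3, overlapped. Without Mup3 the other 9 genes held 0.0238, 0.0291, 0.0170 and 0.0345% in Gramd1c-/- mice, against 0.00553, 0.0098, 0.00725, 0.0172 and 0.00758% in Gramd1c+/+ mice. Here only Gramd1c+/+ replicate 4 reached the lowest Gramd1c-/- mouse.

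**Figure D2:**
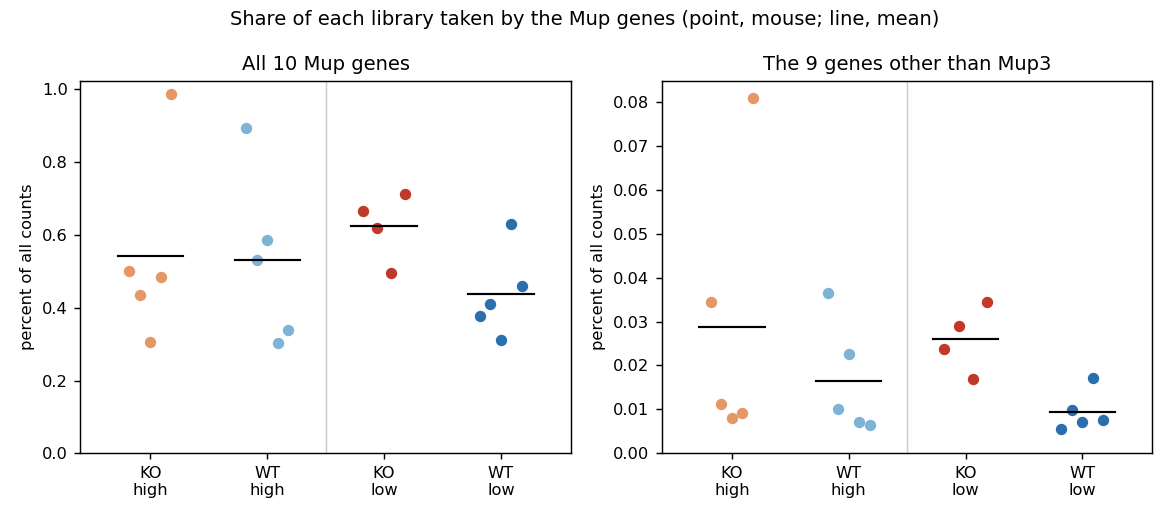
Percent of all counts taken by the 10 Mup genes together (left) and by the 9 genes other than Mup3 (right) in each mouse (points, with group means as lines) for KO and WT mice on high and low cholesterol. The highest mice on high cholesterol, KO replicate 5 with 0.989% and WT replicate 1 with 0.894%, lie far above the rest of their groups.

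On high cholesterol no member separated the genotypes. Mup7 had 12.5, 3.95, 1.79, 8.27 and 203.5 TPM in Gramd1c-/- mice, against 74.8, 5.17, 8.82, 2.19 and 1.16 TPM in Gramd1c+/+ mice. Mup11 had 87.5, 10.6, 5.31, 17.4 and 219.8 TPM in Gramd1c-/- mice, against 30.3, 14.8, 54.1, 5.04 and 4.52 TPM in Gramd1c+/+ mice. Mup12 had 10.1, 4.41, 1.84, 1.99 and 28.8 TPM in Gramd1c-/- mice, against 6.27, 2.69, 9.34, 2.96 and 1.29 TPM in Gramd1c+/+ mice. In each of these genes replicate 5 was the highest Gramd1c-/- mouse, while the highest Gramd1c+/+ mouse was replicate 1 for Mup7 and replicate 3 for Mup11 and Mup12.

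Mup20 had 225.6, 100.7, 115, 145 and 813 TPM in Gramd1c-/- mice, against 611, 137, 147, 129 and 90.1 TPM in Gramd1c+/+ mice, and Mup3 9094, 8262, 6651, 10359 and 16672 TPM against 17260, 10397, 10430, 6561 and 7025 TPM. A single mouse of each genotype, Gramd1c-/- replicate 5 and Gramd1c+/+ replicate 1, stood above the rest for both genes. Members higher in every Gramd1c-/- mouse numbered 0 of 10, where 0.186% of all genes were. Called members numbered 0 of 10 by edgeR, DESeq2 and limma, where 0.00666% of genes were called, and 0 had an unadjusted p below 0.05 by edgeR, DESeq2 or limma, where 2.42% of genes did. The log2 fold change, Gramd1c-/- over Gramd1c+/+, was 1.56 (SE 0.90, unadjusted p = 0.0961) for Mup11, 1.33 (SE 1.12) for Mup7, 1.17 (SE 0.68) for Mup1, 1.01 (SE 0.67) for Mup12, 1.02 (SE 0.92) for Mup17, 0.31 (SE 0.57) for Mup20 and -0.09 (SE 0.29) for Mup3.

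These values rested on single mice. Without Gramd1c-/- replicate 5, one of the libraries that stood apart, the log2 fold change on high cholesterol was -1.55 for Mup7, -0.70 for Mup20, -0.24 for Mup1 and -0.08 for Mup12, and 0.36 for Mup11. Without Gramd1c+/+ replicate 1 it was 3.35 for Mup7, 1.13 for Mup20 and 0.16 for Mup3, and without Gramd1c+/+ replicate 3 it was 2.35 for Mup11, 1.57 for Mup12 and 2.92 for Mup17, which was -0.02 without Gramd1c-/- replicate 1. The count of members with an unadjusted p below 0.05 was then 3 (Mup11, Mup12 and Mup17) without Gramd1c+/+ replicate 3, 2 without Gramd1c+/+ replicate 1 (Mup7 and Mup20) or Gramd1c-/- replicate 3 (Mup1 and Mup11) and 1 without Gramd1c-/- replicate 4 (Mup1). Averaged over both diets, 4 members had an unadjusted p below 0.05, where 2.98% of genes did, and 0 of 10 were called, where 0.00666% of genes were (edgeR, with DESeq2 and limma also at 4 and 0). Their log2 fold changes, from the edgeR fit of 19 mice, were those of Mup11 (2.19, SE 0.66, unadjusted p = 0.00339), Mup7 (2.49, SE 0.84), Mup12 (1.38, SE 0.51) and Mup1 (1.07, SE 0.51). Mup1 lost its unadjusted p below 0.05 without any 1 of 10 mice. Without Gramd1c-/- replicate 5 on high cholesterol the 4 values were 1.59, 1.05, 0.84 and 0.36, and only Mup11 kept an unadjusted p below 0.05 (0.0148 by edgeR).

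**Figure D3:**
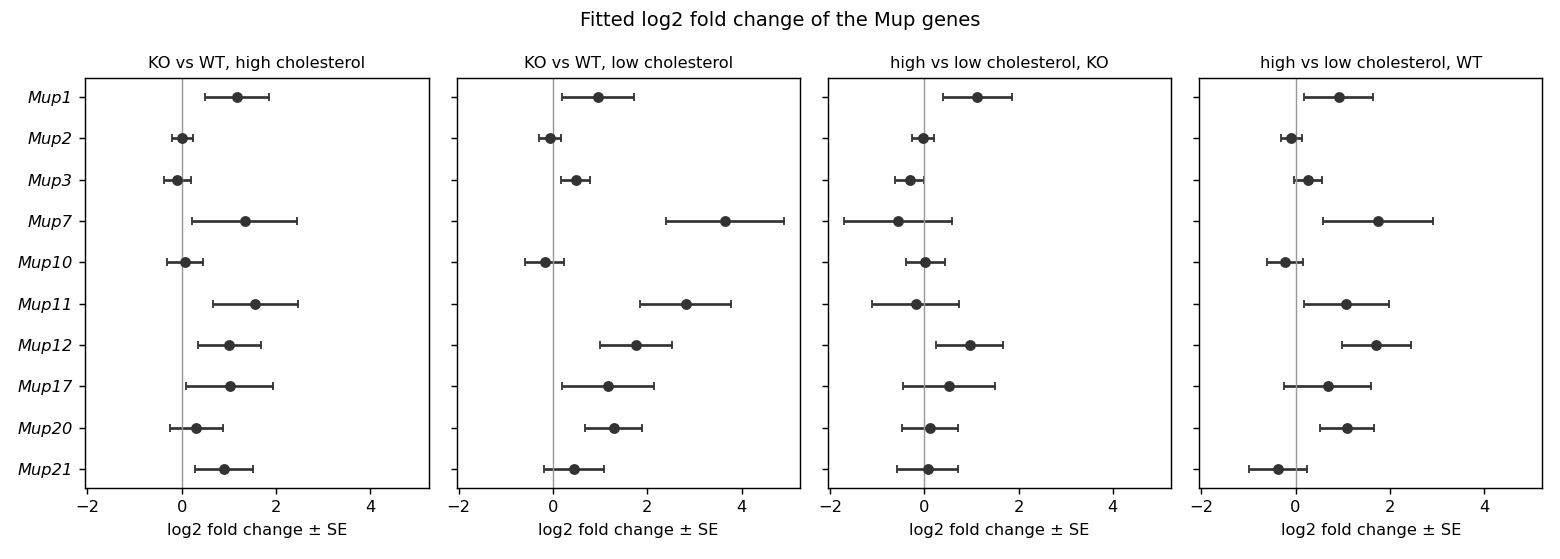
Fitted log2 fold change of each Mup gene (point) with its standard error (bar) for KO over WT mice on high and on low cholesterol and for high over low cholesterol in KO and in WT mice, from the edgeR model of all 19 mice. The largest values are those of Mup7 (3.65) and Mup11 (2.82) for KO over WT on low cholesterol, while Mup2 and Mup10 stay near 0 in all 4 panels.

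Whether the genotype effect differed between diets was tested directly as an interaction, and no member passed. Called members numbered 0 of 10 by edgeR, DESeq2 and limma, as did called genes overall (0% of 15016), and 0 members had an unadjusted p below 0.05 by any of the 3 tools, where 1.66% by edgeR of genes did. For Mup7 the interaction was -2.31 on the log2 scale (SE 1.63, unadjusted p = 0.172 by edgeR). It was -5.20 (unadjusted p = 0.00111) without Gramd1c-/- replicate 5 and -0.30 without Gramd1c+/+ replicate 1, both on high cholesterol. Without that Gramd1c-/- mouse 4 members had an unadjusted p below 0.05 (Mup3, Mup7, Mup12 and Mup20, 0.00111 to 0.0429 by edgeR), and without both libraries that stood apart 2 had one (Mup7 and Mup20).

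The diet itself did not separate any member. Of the 10 members 0 were higher in every high-cholesterol than in every low-cholesterol mouse, where 0.693% of genes in Gramd1c+/+ and 2.68% in Gramd1c-/- mice were. Called members numbered 0 of 10 in each genotype by edgeR, DESeq2 and limma, where 0.44% of genes were called in Gramd1c+/+ and 0.326% in Gramd1c-/- mice. In Gramd1c+/+ mice 1 member, Mup12, had an unadjusted p below 0.05 by edgeR, where 7.93% of genes did (1 member by DESeq2 and 0 by limma, and 2, with Mup20, without high-cholesterol Gramd1c+/+ replicate 4 or 5 or Gramd1c-/- replicate 5). Mup12 had 4.51 ± 3.26 TPM (SD, n = 5) on high and 1.48 ± 0.894 TPM (SD, n = 5) on low cholesterol. Its log2 fold change was 1.72 (SE 0.73, unadjusted p = 0.0288 in the edgeR fit of 19 mice), and p rose above 0.05 without high-cholesterol replicate 1 or 3 or low-cholesterol replicate 1, 2 or 5, up to 0.134 at a value of 1.15 without high-cholesterol replicate 3. Mup20 followed, with 223 ± 218 TPM (SD, n = 5) on high and 109 ± 22.9 TPM (SD, n = 5) on low cholesterol (log2 fold change 1.10, SE 0.57), a value of 0.28 without high-cholesterol replicate 1. In Gramd1c-/- mice 0 of 10 had an unadjusted p below 0.05, where 11.4% of genes did (0 by DESeq2 and 1 by limma, and 2, Mup3 and Mup7, without high-cholesterol replicate 5). Mup7 stood at -0.56 (SE 1.15), or at -3.45 (unadjusted p = 0.00338 by edgeR) without high-cholesterol replicate 5, and Mup12 at 0.96 (SE 0.71), or at -0.12 without that mouse.

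Across the 19 mice the members did not all move alike, and the sets below are not sharply bounded. Mup3, Mup7, Mup11, Mup12, Mup20 and Mup21 were ordered alike, with Spearman correlations of TPM of 0.591 to 0.912 over their 15 pairs and Pearson correlations of log2-scaled counts of 0.72 to 0.933 after the group means were taken away. Mup1 went with them (0.53 to 0.83). These genes include the least alike sequences among the members, such as Mup3 and Mup21 against Mup7 (0.907 and 0.825), which share no window of 150 bases. All points share the same 19 libraries, and these sets were read from the values.

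Mup17 went less closely with that set. Its correlation with the 6 genes was 0.282 to 0.588, a range that overlaps that of Mup1. Within groups it was 0.012 to 0.515, below that of Mup1. With Mup9, Mup15, Mup16, Mup18 and Mup19, none of them in the list of 10, it was 0.816 to 0.919, and 0.837 to 0.937 within groups. Mup15, Mup16, Mup18 and Mup19 are the neighbours of Mup17 in the array. The mouse with the most Mup3 (Gramd1c+/+ replicate 1 on high cholesterol, 17260 TPM, with 611 TPM of Mup20) had the least Mup17 of all, 2.03 TPM. The mouse with the most Mup17, Gramd1c-/- replicate 1 on high cholesterol, had 297 TPM of it but 12.5 TPM of Mup7 and 9094 TPM of Mup3.

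Mup2 and Mup10 followed no other member, with correlations of -0.268 to 0.277 and of -0.282 to 0.196. Mup2 and Mup11 differ by 1 of 540 aligned coding bases and have the same 82 upstream bases, yet their correlation over the mice was -0.12 and Mup2 stayed between 7.83 and 18.7 TPM. Mup10 had 6 to 45 counts, so counting error weighs more in it. For copies this alike, the assignment of shared reads may enter the values, and its part was not tested.

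**Figure D4:**
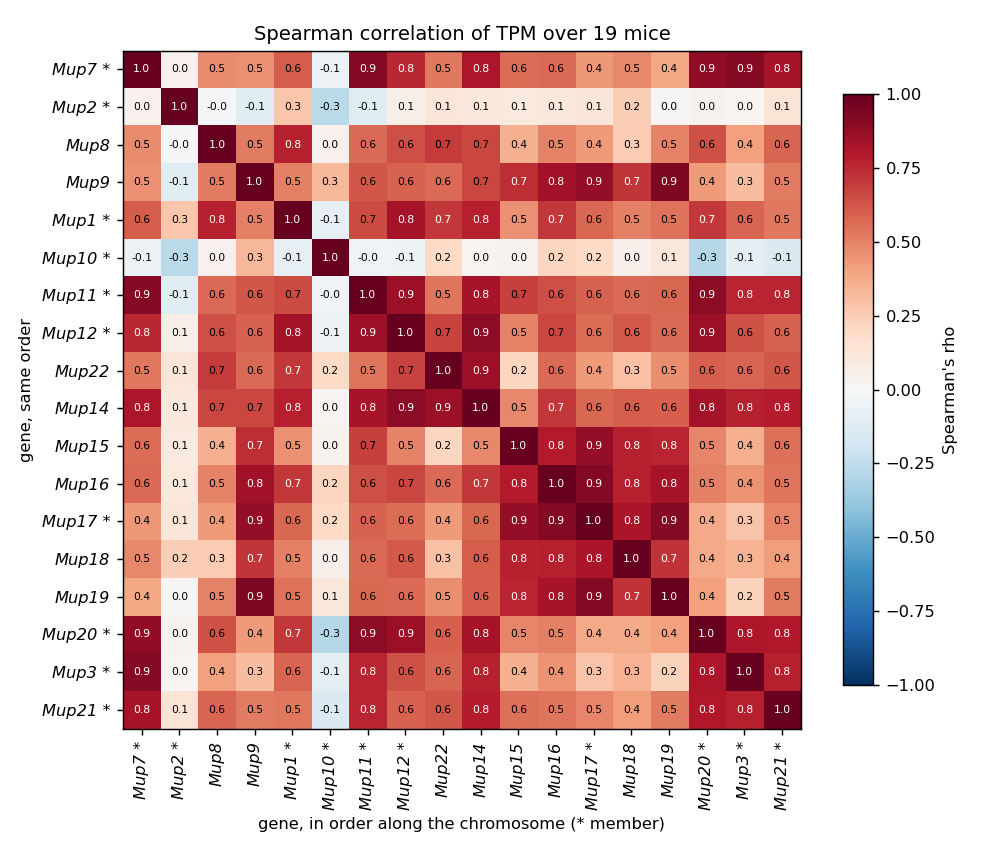
Spearman correlation of TPM over 19 mice for the 10 Mup genes (starred) and the 8 other protein-coding Mup genes with a mean of at least 1 TPM, in order along the chromosome. Mup17 and its neighbours Mup15 to Mup19 form a block of high values. The starred genes other than Mup2, Mup10 and Mup17 form another, to which the unstarred Mup14 also belongs. Mup2 and Mup10 are pale throughout.

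Of the other 39 Mup genes and pseudogenes, 14 passed the filter on low counts. In Gramd1c-/- over Gramd1c+/+ mice on low cholesterol 10 of these 14 had a positive log2 fold change (median 0.57). With an unadjusted p below 0.05 (edgeR) there were 0, beside 2.66% of all tested genes and their median of -0.0015. On high cholesterol 14 of 14 were positive (median 0.86) and 2 had such a p, beside 2.42% of all tested genes and their median of 0.0086. How far these counts rest on high-cholesterol Gramd1c-/- replicate 5 was not examined. The values that follow are from low cholesterol. The 4 most abundant were Mup22, with 114 ± 23.5 TPM (SD, n = 4) in Gramd1c-/- and 119 ± 18.2 TPM (SD, n = 5) in Gramd1c+/+ mice, Mup15 with 109.9 ± 28.7 and 38.6 ± 28.6 TPM, Mup19 with 23.6 ± 12.1 and 15.8 ± 10.6 TPM, and Mup16 with 18.5 ± 4.78 and 12.4 ± 6.39 TPM. Mup15 had the lowest unadjusted p of these 4, 0.0819 (edgeR).

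Liver genes known to differ between the sexes were correlated with the Mup genes over the 19 mice, although all mice were female. Group means were not taken away here, so differences between the groups enter these correlations. Some of these liver genes had already been reported as altered by the study from these same libraries, so the correlations are not independent evidence. The summed share of the 10 genes had a positive Spearman correlation over the 19 mice with 20 of 20 tested male-biased liver genes outside the family (median 0.617) and with 1 of 32 female-biased genes (median -0.417), beside 43% of all tested genes (median -0.054). The highest of the male-biased list was Gstp1, a glutathione transferase, at 0.805, followed by Cyp7b1, an oxysterol hydroxylase, at 0.789. The lowest of the female-biased list was the cytochrome P450 Cyp2b13 at -0.809. Without Mup3 in the sum the medians were 0.661 and -0.362. Among all genes outside the family the 5 highest were Ift27 (0.861), Serpina1c (0.851), Gstp1, the uncharacterized transcript B430119L08Rik (0.804) and Cyp7b1, and the 5 lowest were Dpys (-0.875), Ext2 (-0.832), Fmo1 (-0.812), Cyp2b13 and Rdh10 (-0.800). As the sum is nearly all Mup3, this order is mostly that of Mup3.

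**Figure D5:**
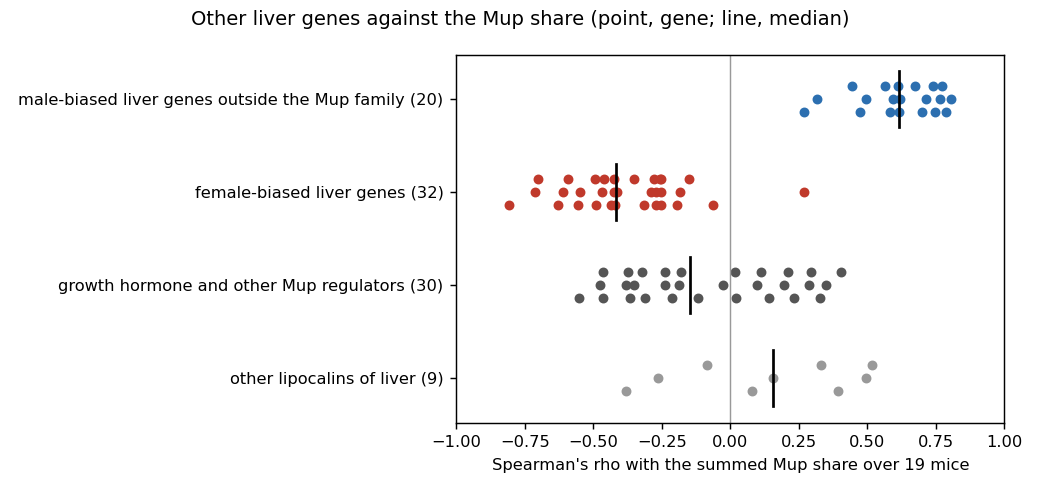
Spearman correlation over 19 mice between the summed count share of the 10 Mup genes and each gene of 4 lists (points, with the list's median as a line). All 20 male-biased genes lie to the right of 0 and 31 of 32 female-biased genes to the left, while the 30 regulators and 9 other lipocalins spread over both sides. Cux2 is in both the female-biased and the regulator list.

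The same lists in the comparison of genotypes on low cholesterol gave 19 of 20 male-biased genes with a positive log2 fold change (median 0.71, 5 with an unadjusted p below 0.05) and 28 of 32 female-biased genes with a negative one (median -0.45, 8 with an unadjusted p below 0.05), and 0 called in either list, beside 2.66% of all tested genes with an unadjusted p below 0.05, 0.00666% called and a median of -0.0015. Among the male-biased genes Cyp7b1 had 89.1 ± 20.6 TPM (SD, n = 4) in Gramd1c-/- and 52.2 ± 15.0 TPM (SD, n = 5) in Gramd1c+/+ mice, Susd4 6.96 ± 2.13 and 2.67 ± 0.908 TPM, C6, a complement component, 23.1 ± 5.20 and 10.9 ± 2.89 TPM, and Alas2, of heme synthesis, 18.5 ± 4.44 and 11.3 ± 1.53 TPM. Among the female-biased genes Cyp3a44 had 33.1 ± 16.9 TPM (SD, n = 4) in Gramd1c-/- and 143 ± 38.1 TPM (SD, n = 5) in Gramd1c+/+ mice, Cyp3a16 2.47 ± 2.27 and 41.9 ± 22.5 TPM, Cyp3a41b 0.801 ± 1.03 and 9.82 ± 5.25 TPM, and the sulfotransferase Sult3a2 4.21 ± 3.62 and 25.6 ± 13.2 TPM. On high cholesterol 13 of 20 male-biased genes (median 0.19) and 25 of 32 female-biased genes (median 0.13) had a positive log2 fold change. There Cyp3a16 had 37.9 ± 34.4 TPM (SD, n = 5) in Gramd1c-/- and 5.90 ± 7.72 TPM (SD, n = 5) in Gramd1c+/+ mice, opposite to low cholesterol. The means of Cyp3a44, Cyp3a41b and Sult3a2 were also higher in Gramd1c-/- mice on that diet. These genes and the Mup genes come from the same libraries, and which of them move together for a common reason was not tested. The study had already reported Cyp3a16, Cyp3a41a, Cyp3a41b, Cyp3a44, Sult3a2 and Susd4 as altered on low cholesterol in these same libraries. All are in these lists, so neither the low-cholesterol counts of the lists nor their correlations with the summed Mup share are independent evidence.

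Regulators of Mup transcription were examined as a list of 30 genes of growth hormone, androgen, thyroid and glucocorticoid signalling and other known regulators. On low cholesterol 23 of them had a log2 fold change above 0 (median 0.11), 2 had an unadjusted p below 0.05, where 2.66% of all genes did, and 0 were called. On high cholesterol 8 of 30 were above 0 (median -0.06), with 0 at an unadjusted p below 0.05. Those 2 were Bcl6, a repressor that is higher in male liver, with 5.02 ± 4.23 TPM (SD, n = 4) in Gramd1c-/- and 2.42 ± 0.325 TPM (SD, n = 5) in Gramd1c+/+ mice, and Thrb, a thyroid hormone receptor, with 12.7 ± 1.98 and 10.6 ± 1.46 TPM. The SD of Bcl6 in Gramd1c-/- mice was nearly as large as its mean, and how far its difference rests on single mice was not examined. Zhx3, a zinc finger and homeobox factor, had 10.9 ± 1.69 TPM (SD, n = 4) in Gramd1c-/- and 9.04 ± 1.22 TPM (SD, n = 5) in Gramd1c+/+ mice. Of 9 other lipocalins of liver 8 had a negative log2 fold change (median -0.18). Orm3, an acid glycoprotein, had 6.05 ± 3.26 TPM in Gramd1c-/- and 17.01 ± 7.35 TPM in Gramd1c+/+ mice (unadjusted p = 0.00196 by edgeR, adjusted p = 1), while C8g, Apom and Orm1, with 478, 514 and 1385 TPM in Gramd1c-/- mice, against 552, 584 and 1573 TPM in Gramd1c+/+ mice, had log2 fold changes of -0.22, -0.18 and -0.20.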

How the data were processed

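The authors deposited raw read counts per Ensembl gene, 1 table per mouse, whole numbers that were not normalized, beside gene coordinates and gene lengths. The submitters' processing notes name GRCm38 and STAR 2.5.2b. How reads were assigned to genes (tool, strand, several matches) is not given in the sources used here. With a median total of 30159347 counts per mouse, depth leaves counting error small beside the spread between mice except for Mup1, Mup10 and Mup12, at 6 to 369 counts.

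From counts and deposited lengths TPM values were derived. Counts were tested across all genes with edgeR 4.0.16 in R 4.3.3 (TMM, filterByExpr by group with a minimum count of 10, 1 coefficient per group, quasi-likelihood F test, Benjamini-Hochberg adjustment), and a gene was called at an adjusted p below 0.05. The script was tested on simulated data. TPM of single members was compared by exact permutation tests (126 or 252 splits). Alternatives were RLE factors, TMM without Mup genes, no filter, fits of just the compared groups, a replicate block, DESeq2 1.42.0, limma 3.58.1 on log2(TPM + 1) and each mouse left out in turn, and, chosen after seeing the data, leaving out both libraries that stood apart.

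The members and gene lists were chosen with earlier results of these data known. Named genes were the 10 members, the 4 other Mup genes with the highest mean TPM, the 4 genes of each other list with the smallest p for genotype on low cholesterol, and the 5 genes outside the family with the highest and the 5 with the lowest correlation with the summed share. A gene that this rule selects is not reported here. Coding sequences and transcripts came from GENCODE M21, aligned with Biopython 1.88, and upstream sequences from RefSeq. Other analyses used Python 3.11.15.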

Additional observations from a re-analysis of the deposited data

Results flagged for a closer look

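Of 40 sets of values (10 members in 4 groups), 11 held a mouse whose distance from its nearest neighbour took up more of the range of the group than the 95% limit of Dixon's test allows, where chance gives about 1 in 20, and the test assumes values that spread evenly around their mean. In every case it was the highest mouse. The members come from the same mice and many of them vary together, so the 40 sets are not independent of each other.

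On high cholesterol Gramd1c-/- replicate 5 was such a mouse for Mup7 with 203.5 TPM (next 12.5), Mup20 with 812.8 TPM (next 225.6), Mup21 with 219.6 TPM (next 74.5) and Mup1 with 8.94 TPM (next 1.75). Gramd1c-/- replicate 1 was one for Mup17 with 297.2 TPM (next 79.1). Among the Gramd1c+/+ mice on that diet replicate 1 was one for Mup7 with 74.8 TPM (next 8.82) and Mup20 with 611.4 TPM (next 147), and replicate 3 for Mup17 with 167.2 TPM (next 26.6).

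On low cholesterol Gramd1c-/- replicate 4 was one for Mup20 with 479.7 TPM (next 222), and among the Gramd1c+/+ mice replicate 4 was one for Mup7 with 15.6 TPM (next 5.22) and replicate 3 for Mup10 with 2.03 TPM (next 1.54).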

How the results depend on the processing

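No member was called in any comparison under any alternative run. On high cholesterol the genotype fold change turned with single libraries. Without both libraries that stood apart it was -1.55 for Mup7, -0.70 for Mup20, -0.24 for Mup1 and -0.0807 for Mup12, and with each mouse left out in turn it ran from -1.55 to 3.35 for Mup7, -0.70 to 1.13 for Mup20, -0.24 to 1.44 for Mup1, -0.0807 to 1.57 for Mup12, -0.0240 to 2.92 for Mup17 and -0.39 to 0.16 for Mup3. It was -0.32 for Mup7 and -0.0062 for Mup20 with the replicate number as a block, and 1.67e-04 for Mup3 by limma. On low cholesterol Mup2 ran from -0.16 to 0.0347 over the mice left out. For high over low cholesterol in Gramd1c-/- mice Mup12 was -0.12 without both libraries and ran from -0.12 to 1.25. Genes called for diet numbered 111 in Gramd1c+/+ and 94 in Gramd1c-/- mice by DESeq2, against 66 and 49 by edgeR, and 41 to 87 in Gramd1c+/+ mice over the mice left out. The cause was not tested. On total-scaled counts the exact permutation p for genotype on low cholesterol was 0.0556 for Mup3 and for Mup17, and the difference of means changed sign for Mup3 between genotypes on high cholesterol (p = 1) and for Mup2 between diets in Gramd1c-/- mice (p = 0.794, exact permutation test). Of 34 further member fold changes not given in the text, 22 changed sign with some mouse left out.

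The labels do not say whether replicate numbers pair the mice. The mean correlation of residuals was -0.069 over 27 pairs with the same number and 0.017 over 108 pairs with different numbers. Mice with the same number were thus no more alike, but this average over genes cannot exclude a pairing by litter or cage. With the number as a block 47 genes were called for diet in Gramd1c+/+ and 36 in Gramd1c-/- mice, and the count of members called stayed at 0.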

Other observations

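Because Mup3 makes up nearly all of the summed counts, the genes most like the other 9 members were looked up as well, after the values were seen. Outside the family the carboxylesterase Ces3a had the highest Spearman correlation with their share over the 19 mice (0.874), followed by the transporter Slc22a28 (0.819), and the flavin monooxygenase Fmo1 was among the lowest (-0.796). Serpina1c and Dpys were near the ends of both orders, at 0.795 and -0.767 here.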
